A study of Homo sapiens with 8 samples.

Results

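LNCaP and PC3 are human prostate cancer lines. LNCaP came from a lymph node metastasis, expresses the androgen receptor and responds to androgens, whereas PC3 came from a bone metastasis and grows without them. Both were made to express activated Notch1, which signals with no need of a ligand, or green fluorescent protein (GFP) as control, and were profiled on Affymetrix U95Av2 arrays. What is described here is the gap between the responses of the lines, that is, the Notch1 minus GFP change of LNCaP less that of PC3. It was computed for every probe set from all 8 arrays of the series, which form 4 groups of 2 by their labels: LNCaP Notch1, LNCaP GFP, PC3 Notch1 and PC3 GFP. After 67 control probe sets were left out, 12558 of 12625 probe sets entered, and 8226 genes were represented by them. The labels give neither a dose of Notch1 nor a time, nor do they name the vector, and each line comes from 1 patient's metastasis, so a difference between the lines is one between these cell lines. Per the methods, 2 chips were run for each sample, so the p-values measure only the spread between arrays, which may be technical.

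Notch receptors are cleaved after contact with a ligand on a neighbouring cell, and the freed intracellular domain enters the nucleus, where it joins the DNA-binding protein CSL and the coactivator Mastermind to switch on target genes such as those of the HES family. The outcome is known to depend strongly on the cell: the pathway can hold back or drive proliferation, and in the prostate it acts in the balance of basal and luminal cells. Activated Notch1 bypasses the ligand. The amount of it that each line received was not analysed here, so the strength of the signal in the lines is known only through its targets.

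Throughout, levels are log2 expression values, an effect is the Notch1 mean minus the GFP mean of a line on the log2 scale, and the difference is the LNCaP effect minus the PC3 effect. A gene was called at a Benjamini-Hochberg adjusted p under 0.05 by limma, and a gene is said to have risen or fallen in a line only where its effect there was called. Array medians were 6.28 to 6.36 in LNCaP and 5.95 to 6.01 in PC3, and 31.9% to 33.0% of probe sets on an LNCaP array and 36.6% to 37.6% on a PC3 array lay under log2 5, where values depend on array background. Arrays of a group correlated at 0.995 to 0.998 across probe sets. RNA integrity, read as the 3′ minus 5′ value of ACTB controls, was 0.45 with Notch1 and 0.62 with GFP in LNCaP, against 0.33 with Notch1 and 0.38 with GFP in PC3. GAPDH controls gave 0.38 with Notch1 and 0.56 with GFP in LNCaP, against -0.06 with Notch1 and 0.02 with GFP in PC3. The part of RNA integrity in the results was not tested. Most defining genes of PC3 were higher there with either construct. CAV1, the protein of caveolae, averaged 1.69 with Notch1 and 1.66 with GFP in LNCaP, against 9.66 with Notch1 and 8.98 with GFP in PC3. AXL, a receptor tyrosine kinase chosen as a PC3 marker, was alike in the lines, at 8.30 with Notch1 and 8.29 with GFP in LNCaP and 8.10 with Notch1 and 8.38 with GFP in PC3, and EGFR was close, at 6.97 with Notch1 and 6.41 with GFP in LNCaP and 7.18 with Notch1 and 6.84 with GFP in PC3. The 6 measured markers of LNCaP were all higher there with either construct. TMPRSS2 averaged 8.31 with Notch1 and 9.13 with GFP in LNCaP, against 5.10 with Notch1 and 5.19 with GFP in PC3. HOXB13, a homeobox factor of the prostate, was close, at 9.98 with Notch1 and 10.21 with GFP in LNCaP and 9.51 with Notch1 and 9.79 with GFP in PC3.

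The response differed between the lines for 1250 of 8226 genes, or 15.2%. The difference was positive for 564 genes (6.86%) and negative for 686 (8.34%), and it reached 2-fold for 205 (2.49%) and 353 (4.29%) of them. The 4 array differences of a gene in LNCaP lay wholly above or wholly below those in PC3 in 49.6% of all genes. By probe set the calls numbered 815 positive (6.49%) and 963 negative (7.67%), and centring every array on its median turned this split into 549 positive and 1255 negative, the median difference over all probe sets being 0.12. Most calls came from LNCaP: of the 564 genes with a positive difference 330 had risen in LNCaP alone and 79 had fallen in PC3 alone, and of the 686 with a negative difference 423 had fallen in LNCaP alone and 142 had risen in PC3 alone. Opposite responses were few, and their number depended on single arrays. In 12 genes (0.146% of those tested) a rise in LNCaP met a fall in PC3, and in 38 (0.462%) a fall in LNCaP met a rise in PC3 (18 probe sets, or 0.143%, and 60, or 0.478%). The 18 probe sets became 2 without either PC3 Notch1 array and 43 without PC3 GFP replicate 2, and the 60 became 8 without PC3 Notch1 replicate 2 and 171 without PC3 GFP replicate 2. A further 120 positive and 62 negative differences were called although neither line passed the test by itself.

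Seen from each line, activated Notch1 raised 697 genes (8.47%) and lowered 836 (10.2%) in LNCaP, and raised 359 (4.36%) and lowered 182 (2.21%) in PC3. Of these, 373 rises and 474 falls in LNCaP, and 211 rises and 104 falls in PC3, were also called in the difference. By probe set the calls were 1006 (8.01%) and 1170 (9.32%) in LNCaP, and 526 (4.19%) and 253 (2.01%) in PC3. So 53.5% to 58.8% of what changed in a line changed there to a different degree than in the other line, and the remainder was not shown to differ. All these counts depended on single arrays. With 1 array left out, the positive differences numbered 274 to 890 genes and the negative ones 394 to 944, with the highest counts without PC3 GFP replicate 2.

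**Figure D1:**
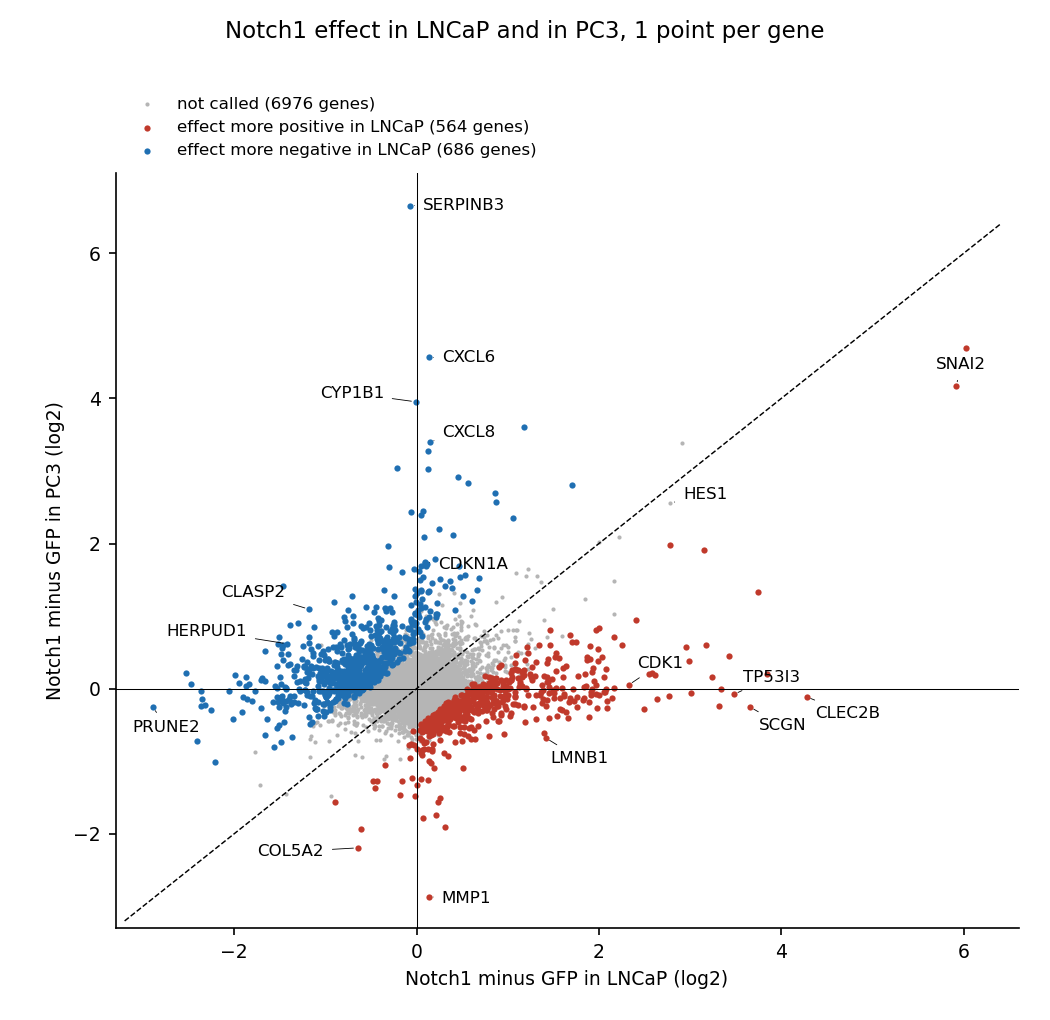
Effect of activated Notch1 on each gene in LNCaP (x axis) and PC3 (y axis), as Notch1 minus GFP means on the log2 scale (n = 2 arrays per group), with colours for genes called in the difference between lines. Most coloured points lie along an axis, off the diagonal of equal response, with SERPINB3 far up the PC3 axis and CLEC2B far along that of LNCaP; 1 gene that is not coloured, MAP2K5 (-9.34 and -9.27), lies outside the axes.

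The signal given to the lines was read first from HES1, the classical Notch target and a transcriptional repressor. HES1 stood at 11.22 and 11.23 on the LNCaP Notch1 arrays and at 8.41 and 8.47 on the LNCaP GFP arrays, against 10.51 and 10.61 on the PC3 Notch1 arrays and 7.92 and 8.08 on the PC3 GFP arrays. Both Notch1 arrays lay above both GFP arrays in each line, and the effects were close, at 2.78 in LNCaP and 2.56 in PC3. Their difference was 0.23 ± 0.16 (SE, adjusted p = 0.36), and it was called only after quantile normalization, at 0.61. The HES1 promoter is shown because it is a well studied target of CSL. The window runs from 250 bases before to 50 bases after the start that RefSeq gives on GRCh38.p14, chr3:194135898-194136197 on the + strand, and capitals mark TGGGAA, a core of the CSL motif, searched on both strands.
HES1: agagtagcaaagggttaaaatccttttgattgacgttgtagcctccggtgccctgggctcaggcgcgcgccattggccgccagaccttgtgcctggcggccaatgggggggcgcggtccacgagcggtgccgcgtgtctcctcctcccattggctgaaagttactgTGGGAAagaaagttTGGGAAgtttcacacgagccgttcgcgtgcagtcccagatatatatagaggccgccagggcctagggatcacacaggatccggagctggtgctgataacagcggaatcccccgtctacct
The core was found at -84 and at -70 from the start, both on the strand of the gene and without overlap, and 21.6% of 10095 windows of 6618 genes held at least 1 such core. Here and below a match describes letters in a window, not a site in use.

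A few other members of the pathway had a called difference, which HES1 had not. Of 18 measured members 3 had a called positive difference and 1 a negative one (22.2% called, against 15.2% over all genes). The median difference was 0.36 against 0.11 over all genes. JAG2, a ligand of the receptor, stood at 8.72 and 8.69 with Notch1 and 10.42 and 10.38 with GFP in LNCaP, and at 8.75 and 8.66 with Notch1 and 9.08 and 8.85 with GFP in PC3. It fell by 1.70 in LNCaP, where the groups did not overlap, and had an effect of -0.26 in PC3 (difference -1.44 ± 0.17, adjusted p = 0.000427). NOTCH3, another receptor of the family, rose by 0.72 in LNCaP and had an effect of -0.15 in PC3, where all its arrays lay under log2 5. The differences of NOTCH3 (0.87, adjusted p = 0.0187), of HES2 (0.65, adjusted p = 0.045), another HES repressor, and of NCSTN (0.62, adjusted p = 0.0461), the nicastrin subunit of the gamma-secretase that cleaves the receptor, were each lost without LNCaP Notch1 replicate 1, PC3 Notch1 replicate 1 or PC3 Notch1 replicate 2, and HES2 and NCSTN also under median centring. The count of 3 positive members became 0 with the floor defined below, without PC3 Notch1 replicate 1, PC3 Notch1 replicate 2 or LNCaP Notch1 replicate 1, and 1 under median centring or without LNCaP Notch1 replicate 2 or either LNCaP GFP array.

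Genes that rose in LNCaP and not in PC3 made up the top of the list of positive differences. CLEC2B, a C-type lectin recognised by natural killer cells, stood at 8.31 and 8.70 on the LNCaP Notch1 arrays and 4.20 and 4.25 on the LNCaP GFP arrays, against 9.19 and 9.13 on the PC3 Notch1 arrays and 9.31 and 9.23 on the PC3 GFP arrays. LNCaP GFP was the low group, and with Notch1 the LNCaP arrays came within 1 log2 unit of the PC3 arrays. In PC3 both Notch1 arrays lay slightly below both GFP arrays, a change that was not called. The effect was 4.28 in LNCaP and -0.11 in PC3, and the difference 4.39 ± 0.20 (adjusted p = 1.88e-06). ANXA1, the phospholipid-binding protein annexin A1, had the same shape, with 8.00 and 7.95 with Notch1 and 4.41 and 5.06 with GFP in LNCaP, and 10.37 and 10.48 with Notch1 and 10.14 and 10.40 with GFP in PC3 (difference 3.08 ± 0.27). OAT, ornithine aminotransferase of mitochondria, was the third of this kind: 7.4 and 7.63 with Notch1 and 4.08 and 4.11 with GFP in LNCaP, against 9.85 and 9.83 with Notch1 and 9.25 and 9.54 with GFP in PC3 (difference 2.98 ± 0.19). In these 3 genes PC3 was high with either construct.

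Another kind was low in both lines and rose in LNCaP alone. SCGN, a calcium sensor of endocrine cells, stood at 9.74 and 9.40 with Notch1 and 6.22 and 5.61 with GFP in LNCaP, and at 4.71 and 4.75 with Notch1 and 5.06 and 4.91 with GFP in PC3. SCGB1A1, a secretoglobin of the airways, read 8.98 and 8.46 with Notch1 and 5.57 and 5.25 with GFP in LNCaP, and 4.86 and 5.08 with Notch1 and 5.33 and 5.08 with GFP in PC3. Only the LNCaP Notch1 arrays stood apart in either gene, and the differences were 3.91 ± 0.27 and 3.55 ± 0.26. CITED1, a coactivator that binds CBP and p300, and AGT, angiotensinogen, behaved likewise, with differences of 3.34 ± 0.23 and 3.07 ± 0.22. TNFSF10, the death ligand TRAIL, read 6.49 and 6.46 with Notch1 and 3.06 and 2.20 with GFP in LNCaP, and 2.34 and 2.80 with Notch1 and 2.55 and 2.18 with GFP in PC3. Since 3 of its groups lay under log2 5, its difference of 3.63 ± 0.36 (adjusted p = 0.000138) became 1.47 once every value under log2 5 was set to 5, a setting called the floor below. FN1, the matrix protein fibronectin, rose in LNCaP from a far higher level, with 12.40 and 12.38 with Notch1 and 10.53 and 10.54 with GFP in LNCaP, against 5.76 and 5.73 with Notch1 and 5.73 and 5.68 with GFP in PC3 (difference 1.81 ± 0.15, adjusted p = 7.81e-05). INHBB, a subunit of activins and inhibins, CLDN8, a tight junction claudin, WNT5A, a ligand of non-canonical Wnt signals, and ACTA2, smooth muscle actin, rose in LNCaP alone as well, with differences of 2.09, 1.86, 2.10 and 1.52.

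**Figure D2:**
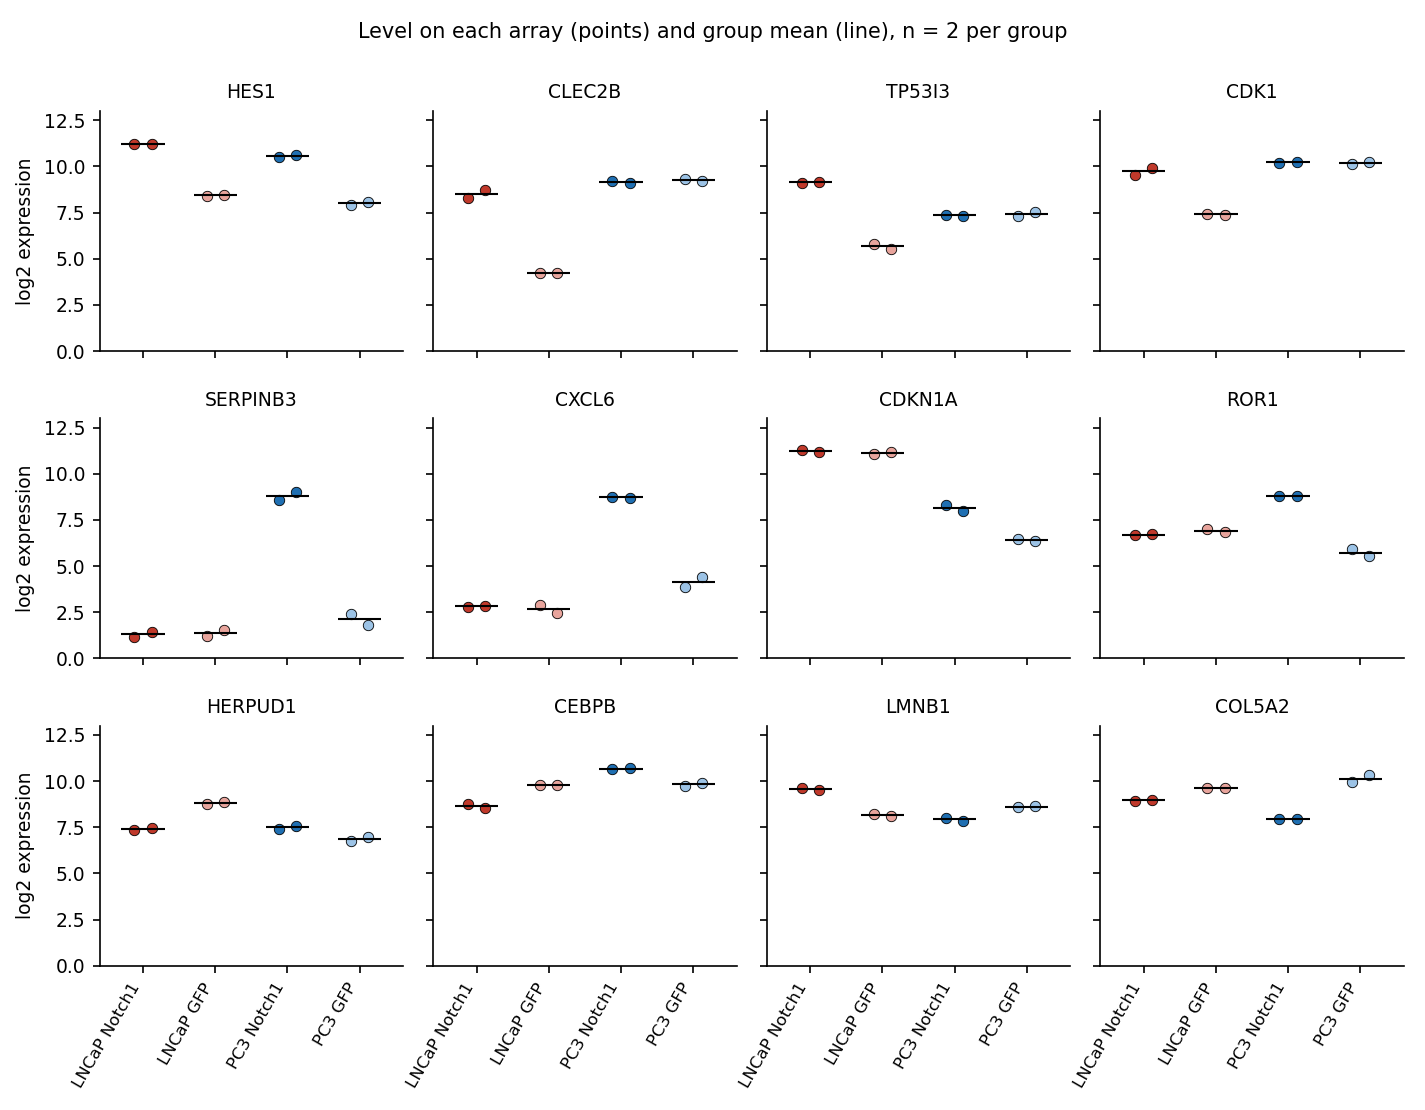
Log2 expression (y axis) of 12 genes on each array of LNCaP Notch1, LNCaP GFP, PC3 Notch1 and PC3 GFP (x axis), with points for arrays and short lines for group means (n = 2). HES1 lies higher with Notch1 in both lines, CLEC2B, TP53I3 and CDK1 were called in LNCaP alone, SERPINB3, CXCL6, CDKN1A and ROR1 in PC3 alone, and in HERPUD1, CEBPB and LMNB1 the lines move in opposite directions.

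Genes of G2, the spindle and mitosis had the highest share of called differences among the lists (90.7% of members). Of 43 measured members 39 had a called positive difference and 0 a negative one, against 6.86% positive over all genes, and the median difference was 1.65. All 39 had risen in LNCaP alone: 40 members rose there and 0 fell, with a median effect of 1.59, while in PC3 1 rose, 0 fell and the median effect was -0.05. The 4 members without a called difference were BIRC5, BUB3, CDC25B and TRIP13, named here after their values were seen. The array medians of the list show where the lines parted: they were 8.33 and 8.20 on the LNCaP Notch1 arrays, against 6.67 and 6.69 on the LNCaP GFP arrays, and 7.99 and 7.99 on the PC3 Notch1 arrays, against 8.29 and 8.00 on the PC3 GFP arrays. LNCaP GFP was the lowest of the 4 groups in 41 of 43 members, and with Notch1 the LNCaP median reached that of PC3. Gene by gene, LNCaP Notch1 lay above both PC3 groups in 12 of the 43. In a culture, a smaller share of dividing cells and less mRNA per cell cannot be told apart. The count was 32 to 38 with any array left out and 26 with the floor.

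CDK1, the kinase that drives entry into mitosis, stood at 9.56 and 9.94 on the LNCaP Notch1 arrays and 7.45 and 7.39 on the LNCaP GFP arrays, against 10.21 and 10.25 on the PC3 Notch1 arrays and 10.11 and 10.23 on the PC3 GFP arrays. The LNCaP groups were far apart and the PC3 groups overlapped in range, so the effect was 2.33 in LNCaP and 0.05 in PC3 (difference 2.28 ± 0.20, adjusted p = 7.82e-05). CCNA2, its partner cyclin A2, read 8.44 and 8.12 with Notch1 and 6.37 and 6.01 with GFP in LNCaP, and 8.85 and 8.72 with Notch1 and 9.12 and 8.77 with GFP in PC3 (difference 2.26 ± 0.24). PLK4, which starts the copying of centrioles, differed by 2.27 ± 0.23, but another of its probe sets gave 0.44 (adjusted p = 0.19). TTK, a kinase of the spindle checkpoint, differed by 2.34 ± 0.29, a call that ended with the floor (0.17), because the LNCaP GFP arrays lay at 2.78 and 2.87. CDKN3, a phosphatase of CDK1 and CDK2 that is itself made in dividing cells, followed the mitotic genes, with a difference of 1.86 ± 0.20.

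A promoter of CDK1 is shown because mitotic genes share a pair of elements, the CCAAT box, which NF-Y binds, and the cell cycle homology region, whose core is TTTGAA. Capitals mark TTTGAA and CCAAT on either strand in the window at chr10:60778228-60778527 (GRCh38.p14, + strand), 1 of 2 start windows that RefSeq gives for the gene and the one that holds the pair.
CDK1: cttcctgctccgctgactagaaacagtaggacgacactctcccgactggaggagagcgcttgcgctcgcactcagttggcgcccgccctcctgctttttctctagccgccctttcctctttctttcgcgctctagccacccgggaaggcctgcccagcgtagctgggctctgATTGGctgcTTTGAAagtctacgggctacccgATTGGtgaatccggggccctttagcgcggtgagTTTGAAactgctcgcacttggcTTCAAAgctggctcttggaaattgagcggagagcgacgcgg
TTTGAA lay at -69 and -13 on the strand of the gene and at 10 on the opposite strand, CCAAT lay on the opposite strand at -78 and -46, and no match overlapped another. TTTGAA was present in 25 of 50 windows of the mitosis list (50%), against 11.9% of all windows, and CCAAT in 37 of 50 (74%), against 34.6%.

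DNA replication and S phase genes went the same way to a lesser degree. Of 37 members 19 had a positive difference (51.4%, against 6.86% over all genes) and 0 a negative one (median 0.71). In LNCaP 33 had risen and in PC3 4, and 0 had fallen in either line. TK1, the thymidine kinase of dividing cells, stood at 9.45 and 9.15 with Notch1 and 7.29 and 7.41 with GFP in LNCaP, against 10.46 and 10.16 with Notch1 and 10.19 and 10.22 with GFP in PC3 (difference 1.85 ± 0.20, adjusted p = 0.000273). MCM4, a subunit of the replicative helicase, read 9.22 and 9.17 with Notch1 and 7.0 and 7.32 with GFP in LNCaP, and 7.96 and 8.24 with Notch1 and 7.64 and 7.70 with GFP in PC3 (difference 1.60 ± 0.20). In both genes the PC3 effects of 0.10 and 0.43 were not called. RRM2, the regulatory subunit of ribonucleotide reductase, was different, since it rose in both lines, by 2.41 in LNCaP and 0.95 in PC3, and the lines differed in size alone (1.46 ± 0.15). Of 35 DNA repair and checkpoint genes 9 differed, all positively (25.7%, against 6.86% positive over all genes), led by BLM, the helicase mutated in Bloom syndrome (2.11 ± 0.19), and FANCG of the Fanconi anemia core complex (1.26 ± 0.18). That count was 3 with the floor, 4 without PC3 Notch1 replicate 2 or LNCaP Notch1 replicate 1 and 5 without LNCaP GFP replicate 2.

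Genes that act in G1 did not follow as a block: of 26 members 3 had a positive and 3 a negative difference. Each count was 11.5% of members, against 6.86% positive and 8.34% negative over all genes. CCND1, cyclin D1, stood at 11.73 and 11.63 with Notch1 and 10.19 and 10.10 with GFP in LNCaP, while PC3 had 9.88 and 9.90 with Notch1 and 9.85 and 9.90 with GFP (difference 1.52 ± 0.16, adjusted p = 0.00019). The 4 PC3 values were nearly equal. MNT, a repressor that competes with MYC for its partner MAX, fell by 1.13 in LNCaP and rose by 0.49 in PC3 (difference -1.62 ± 0.18), and MXD1, of the same network, went the other way with a rise of 0.77 in LNCaP and an effect of -0.45 in PC3 that was not called (difference 1.21 ± 0.21). The MYC antagonists thus differed between the lines with opposite signs.

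**Figure D3:**
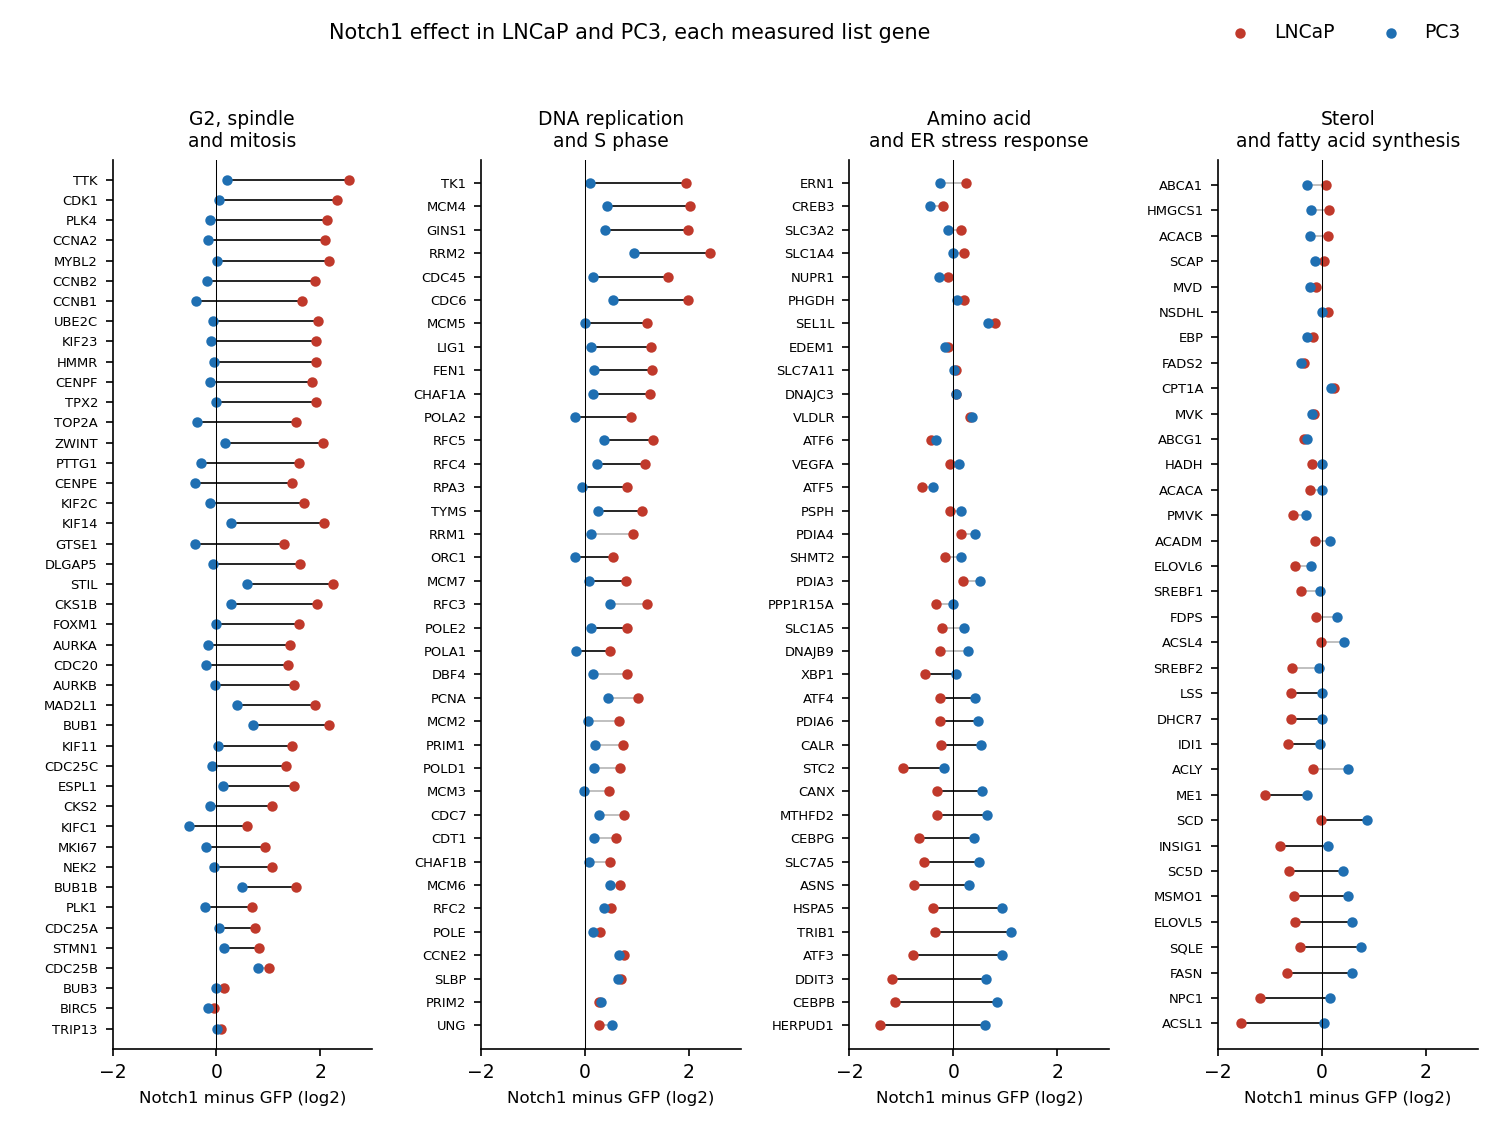
Effects of activated Notch1 (x axis, Notch1 minus GFP, log2) on every measured member of 4 gene lists (rows), with red points for LNCaP, blue points for PC3, and a black joining line where the difference between lines was called. In the mitosis list the red points lie to the right of the blue ones throughout, and in the stress and sterol lists most called members have the red point on the left.

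Among the CDK inhibitors CDKN1A alone had a called negative difference. CDKN1A, which encodes p21, stood at 11.29 and 11.16 on the LNCaP Notch1 arrays and 11.09 and 11.16 on the LNCaP GFP arrays, against 8.28 and 8.00 on the PC3 Notch1 arrays and 6.45 and 6.36 on the PC3 GFP arrays. It was high on every LNCaP array, where the effect of 0.10 was not called, and rose by 1.74 in PC3 without reaching the LNCaP level (difference -1.64 ± 0.18, adjusted p = 0.000278). The INK4 inhibitors had positive differences: CDKN2A, encoding p16, read 6.63 and 6.73 with Notch1 and 6.10 and 6.11 with GFP in LNCaP, against 7.29 and 7.32 with Notch1 and 7.76 and 7.66 with GFP in PC3 (difference 0.98 ± 0.16). CDKN2B, encoding p15, differed by 0.78 ± 0.19, a call lost without any single array other than PC3 GFP replicate 2, and with the floor at the same difference (adjusted p = 0.083). Of 7 measured CDK inhibitors, then, 3 had a positive and 1 a negative difference (57.1% called, against 15.2% over all genes). Because CDKN3 is among the 3, the INK4 pair made up the others.

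Among 19 p53 targets 3 had a positive (15.8%) and 4 a negative difference (21.1%), against 6.86% and 8.34% over all genes. With the floor 1 was negative. The paper reports that p53 protein was undetectable in PC3 and cites an earlier report of a deleted p53 gene there. TP53I3, an oxidoreductase induced by p53, stood at 9.11 and 9.18 with Notch1 and 5.78 and 5.55 with GFP in LNCaP, and at 7.37 and 7.32 with Notch1 and 7.33 and 7.52 with GFP in PC3. It moved in LNCaP alone, passing PC3 from below (difference 3.56 ± 0.18, adjusted p = 3.67e-06). DDB2, a damage sensor of nucleotide excision repair, differed by 1.12 ± 0.17 with a rise in LNCaP. On the negative side stood CDKN1A, PLK2, a polo-like kinase, IGFBP3, which binds insulin-like growth factors, and GADD45A, a growth arrest protein induced by DNA damage. IGFBP3 and GADD45A, named here after their values were seen, rose in both lines and more in PC3 (-1.10 ± 0.22 and -0.66 ± 0.18). PLK2 stood at 9.57 and 9.69 with Notch1 and 8.97 and 9.17 with GFP in LNCaP, against 4.89 and 5.44 with Notch1 and 2.59 and 2.07 with GFP in PC3, where it rose, and its difference of -2.27 became 0.34 with the floor (adjusted p = 0.488). Of the 7 called targets 3 had risen in LNCaP alone, 2 in PC3 alone and 2 in both lines. PMAIP1, the BH3-only death protein NOXA, was counted with the apoptosis genes, of which 3 of 40 were positive and 3 negative (15% called, against 15.2% over all genes). It fell by 0.79 in LNCaP and rose by 0.99 in PC3 (difference -1.78 ± 0.25).

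Genes that rose in PC3 and not in LNCaP headed the negative differences. SERPINB3, a serpin of squamous epithelium, stood at 1.17 and 1.43 on the LNCaP Notch1 arrays and 1.22 and 1.53 on the LNCaP GFP arrays, against 8.57 and 8.99 on the PC3 Notch1 arrays and 2.43 and 1.82 on the PC3 GFP arrays. Only the PC3 Notch1 arrays were above log2 5, and the difference of -6.73 ± 0.30 (adjusted p = 1.88e-06) was -3.78 with the floor. SERPINB1, an inhibitor of neutrophil elastase, read 3.36 and 3.55 with Notch1 and 3.15 and 3.50 with GFP in LNCaP, and was well expressed in PC3 with either construct, at 11.06 and 10.94 with Notch1 and 8.01 and 7.92 with GFP (difference -2.91 ± 0.20). ROR1, a receptor of WNT5A, was expressed in both lines, with 6.70 and 6.71 with Notch1 and 7.0 and 6.84 with GFP in LNCaP, and 8.79 and 8.77 with Notch1 and 5.91 and 5.55 with GFP in PC3. In PC3 it lay above the LNCaP arrays with Notch1 and below them with GFP (difference -3.26 ± 0.19, adjusted p = 9.41e-06). CYP1B1, which metabolises estrogens, and CSN1S1, a milk casein, differed by -3.96 ± 0.31 and -3.14 ± 0.21, with all LNCaP arrays under log2 5, and by -2.08 and -1.56 with the floor.

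Neutrophil chemokines were among the strongest of these. CXCL6 stood at 2.80 and 2.85 with Notch1 and 2.88 and 2.48 with GFP in LNCaP, and at 8.75 and 8.70 with Notch1 and 3.88 and 4.43 with GFP in PC3. CXCL8, or interleukin 8, read 5.84 and 5.92 with Notch1 and 5.77 and 5.69 with GFP in LNCaP, and 10.65 and 10.86 with Notch1 and 7.47 and 7.23 with GFP in PC3. Both genes rose in PC3, and neither effect was called in LNCaP. The differences were -4.42 ± 0.26 (adjusted p = 9.28e-06) and -3.26 ± 0.18 (adjusted p = 7.87e-06). CXCL2, of the same family, differed by -2.01, a call lost with the floor (-0.79), and IL18, a cytokine of the interleukin 1 family, by -1.60 ± 0.18. Over the whole list of 54 NF-kB targets and chemokines the picture was not uniform: 5 had a negative difference, all with a rise in PC3 alone, 3 a positive one (14.8% called, against 15.2% over all genes), and the median difference was 0.13. The 3 positive members became 5 without PC3 GFP replicate 2 and 0 or 1 without any other single array.

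The promoters of CXCL6 and CXCL8 are shown because both carry GGAATTTCC, a form of the NF-kB site, searched on both strands and set in capitals. The windows are chr4:73836428-73836727 and chr4:73740319-73740618 (GRCh38.p14, + strand), from RefSeq.
CXCL6: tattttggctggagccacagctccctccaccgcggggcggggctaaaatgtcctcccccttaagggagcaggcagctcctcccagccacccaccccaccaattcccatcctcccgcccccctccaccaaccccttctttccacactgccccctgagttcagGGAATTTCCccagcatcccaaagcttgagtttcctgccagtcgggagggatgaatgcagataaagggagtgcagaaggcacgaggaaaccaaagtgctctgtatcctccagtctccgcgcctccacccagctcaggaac
CXCL8: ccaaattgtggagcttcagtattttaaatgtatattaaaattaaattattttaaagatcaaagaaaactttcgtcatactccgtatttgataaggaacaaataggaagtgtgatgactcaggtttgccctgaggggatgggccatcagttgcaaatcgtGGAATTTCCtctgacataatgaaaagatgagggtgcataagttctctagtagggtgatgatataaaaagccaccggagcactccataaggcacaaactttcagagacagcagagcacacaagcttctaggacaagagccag
The site lay at -89 in CXCL6 and at -91 in CXCL8. It was present in 15 of 63 windows of the NF-kB and chemokine list (23.8%), against 0.515% of all windows, so that it also occurs in listed genes that did not differ. Because the list was drawn up from NF-kB targets, this share describes the choice of genes and not their response.

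PC3 rises extended to secreted and signalling proteins. RGS4, a brake on G protein signals, rose by 0.46 in LNCaP and 2.92 in PC3, with 5.11 and 5.17 with Notch1 and 4.62 and 4.74 with GFP in LNCaP, and 12.35 and 12.23 with Notch1 and 9.49 and 9.25 with GFP in PC3 (difference -2.46 ± 0.18, adjusted p = 2.62e-05). ADGRG6, an adhesion receptor, stood at 7.62 and 7.61 with Notch1 and 6.26 and 6.62 with GFP in LNCaP, and at 7.48 and 7.63 with Notch1 and 3.62 and 4.28 with GFP in PC3. With Notch1 the lines met at about the same level of ADGRG6, whereas with GFP they did not, and the difference was -2.43 ± 0.28. EPHB6, an Eph receptor that lacks kinase activity, also rose in both lines and more in PC3 (-1.70 ± 0.18). TCN1, a carrier of vitamin B12, PI3, the elastase inhibitor elafin, TIMP1, an inhibitor of metalloproteinases, and SAT1, which acetylates spermidine and spermine, rose in PC3 alone, with differences of -2.49, -1.96, -1.65 and -1.77. SAT1 was near the top of the scale in every group, from 11.41 upward, and another of its probe sets did not give the same call. SMAD3, which carries TGF-beta signals to the nucleus, rose by 0.68 in LNCaP and 1.53 in PC3, and its difference of -0.84 ± 0.24 (adjusted p = 0.0404) was lost in 7 of 14 alternatives, LNCaP Notch1 replicate 1 or 2, LNCaP GFP replicate 1, PC3 Notch1 replicate 1 or PC3 GFP replicate 2 left out among them. Of 3 other SMAD3 probe sets 1 was called with the same sign (-0.68), and the others were not (-0.65, adjusted p = 0.0727, and -0.11, adjusted p = 0.665). EPAS1, or HIF-2alpha, a hypoxia-inducible factor, rose by 0.84 in LNCaP and had an effect of 0.23 in PC3, a difference that was not called (0.61 ± 0.20, adjusted p = 0.0655) except with the replicate number as a block and without PC3 GFP replicate 2.

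Falls in PC3 that LNCaP did not share, or shared to a lesser degree, included those of some matrix and surface genes. The matrix lists as a whole did not lean that way in PC3. Of 49 collagens, laminins and integrins 3 rose and 3 fell there, and of 46 matrix proteases and their inhibitors 6 rose and 2 fell. In the difference each list had 7 positive and 4 negative members (22.4% and 23.9% called, against 15.2% over all genes). COL5A2, a fibrillar collagen, stood at 8.93 and 8.99 with Notch1 and 9.61 and 9.61 with GFP in LNCaP, and at 7.93 and 7.93 with Notch1 and 9.94 and 10.30 with GFP in PC3. It fell in both lines, by 0.65 in LNCaP and 2.19 in PC3 (difference 1.55 ± 0.19, adjusted p = 0.00052). LPAR1, a receptor of lysophosphatidic acid, read 5.66 and 5.78 with Notch1 and 7.26 and 7.75 with GFP in PC3, with all LNCaP arrays under log2 5 (difference 1.86 ± 0.22). FST, the activin antagonist follistatin, VEGFC, a growth factor of lymphatic vessels, and IGFBP4, which binds insulin-like growth factors, fell in PC3 alone as well, with differences of 1.11, 1.39 and 1.29. ITGB4, the hemidesmosome integrin, differed by 1.77 ± 0.20, against 0.21 at another probe set. MMP1, a collagenase, read 1.66 and 1.65 with Notch1 and 1.65 and 1.40 with GFP in LNCaP, and 2.43 and 2.06 with Notch1 and 5.06 and 5.16 with GFP in PC3. Its difference of 3.0 ± 0.21 and that of MMP13, a related collagenase, at 2.22 ± 0.21, came from levels near background and became 0.11 and 0.00 with the floor, without a call.

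Falls in LNCaP that PC3 did not share included genes of its own luminal, androgen-responsive character. Of 27 androgen response and luminal genes 7 had a negative (25.9%) and 1 a positive difference (3.7%), against 8.34% and 6.86% over all genes. The median difference was -0.32, and 12 had fallen in LNCaP and 0 in PC3. The 7 became 4 without LNCaP Notch1 replicate 2. ACP3, prostatic acid phosphatase, stood at 5.83 and 5.98 with Notch1 and 7.71 and 7.92 with GFP in LNCaP, while its PC3 arrays lay at 2.17 and 2.12 with Notch1 and 2.43 and 2.50 with GFP, under log2 5. KLK2, a kallikrein of the prostate, read 8.33 and 7.94 with Notch1 and 9.77 and 9.52 with GFP in LNCaP and 4.32 and 4.28 with Notch1 and 4.76 and 4.13 with GFP in PC3. Since PC3 hardly expresses these genes, a fall there could not have been measured. Their differences were -1.58 ± 0.17 and -1.37 ± 0.29, and that of KLK2 was lost without LNCaP Notch1 replicate 2. Steroid and xenobiotic metabolism genes did not fall as a block. Of 32 members 6 had a positive and 5 a negative difference (34.4% called, against 15.2% over all genes), and 7 rose and 4 fell in LNCaP. Among those that fell there, UGT2B17, which glucuronidates androgens, differed by -1.96 ± 0.17 and HSD11B2, which inactivates cortisol, by -1.32 ± 0.16. STEAP1, a surface antigen of prostate cells, was strongly expressed in both lines and differed by -0.89 ± 0.15, with 11.14 and 11.14 with Notch1 and 12 and 12 with GFP in LNCaP, against 9.80 and 9.80 with Notch1 and 9.82 and 9.73 with GFP in PC3. In that gene a fall could have been read in PC3 and none was called.

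Signalling proteins also fell in LNCaP without a called change in PC3. SIK1, a salt-inducible kinase, stood at 5.93 and 5.71 with Notch1 and 8.02 and 8.34 with GFP in LNCaP, and at 6.24 and 6.36 with Notch1 and 6.05 and 6.61 with GFP in PC3. Its LNCaP GFP arrays stood above the other groups, which lay close together (difference -2.33 ± 0.26, adjusted p = 0.0003). GRB10, an adaptor that dampens insulin receptor signals, read 9.47 and 9.35 with Notch1 and 10.88 and 10.91 with GFP in LNCaP, and 8.29 and 8.28 with Notch1 and 8.11 and 8.31 with GFP in PC3 (difference -1.55 ± 0.17). LRBA, a protein of vesicle traffic, and ENDOD1, an endonuclease domain protein, differed by -2.12 ± 0.20 and -2.03 ± 0.18. PIK3R1, the p85alpha subunit of PI3 kinase, PRUNE2, with a BNIP2 homology domain, and SSBP2, a single-stranded DNA-binding protein, fell in LNCaP with differences of -2.20, -2.63 and -2.74, but their PC3 arrays all lay under log2 5. Of 46 genes of PI3 kinase and insulin signalling 6 had a negative and 2 a positive difference (17.4% called, against 15.2% over all genes). LPCAT3, which remodels phospholipids, differed by -2.88 ± 0.53, but its PC3 GFP arrays disagreed (4.83 and 6.38), another probe set gave -0.24, and the floor ended the call at a difference of -2.79.

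Stress genes of the amino acid and endoplasmic reticulum (ER) response leaned downward in LNCaP and upward in PC3. Of 37 members 16 had a negative and 0 a positive difference, against 8.34% negative over all genes (median -0.33). In LNCaP 11 fell and 1 rose, and in PC3 9 rose and 1 fell, so that 4 of the 16 were reversed outright, 5 had fallen in LNCaP alone, 3 had risen in PC3 alone and 4 were called in neither line. CEBPB, a stress-induced leucine zipper factor, stood at 8.77 and 8.52 on the LNCaP Notch1 arrays and 9.78 and 9.77 on the LNCaP GFP arrays, against 10.64 and 10.71 on the PC3 Notch1 arrays and 9.74 and 9.92 on the PC3 GFP arrays. With GFP the lines were alike in CEBPB, and with Notch1 they moved apart in opposite directions (effects -1.13 and 0.85, difference -1.97 ± 0.18, adjusted p = 9.78e-05). DDIT3, the ER stress factor CHOP, read 8.89 and 8.71 with Notch1 and 10.18 and 9.77 with GFP in LNCaP, and 10.26 and 10.11 with Notch1 and 9.73 and 9.37 with GFP in PC3, where its effect of 0.63 was not called (difference -1.81 ± 0.24). ATF3, an early stress factor, fell by 0.78 in LNCaP and rose by 0.93 in PC3. The count of 16 became 10 without LNCaP GFP replicate 2 or PC3 Notch1 replicate 2.

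HERPUD1, an ER membrane protein that helps to clear misfolded proteins, stood at 7.32 and 7.46 with Notch1 and 8.77 and 8.84 with GFP in LNCaP, and at 7.41 and 7.56 with Notch1 and 6.74 and 6.99 with GFP in PC3. LNCaP was far the higher with GFP, and with Notch1 the ranges of the lines overlapped (effects -1.42 and 0.62, difference -2.03 ± 0.18, adjusted p = 8.9e-05). Its promoter is shown for its ER stress elements, at chr16:56931892-56932191 (GRCh38.p14, + strand, RefSeq), with capitals for a short form of the ER stress element, ATTGG and CCACG with 1 free base between, and for CCAAT.
HERPUD1: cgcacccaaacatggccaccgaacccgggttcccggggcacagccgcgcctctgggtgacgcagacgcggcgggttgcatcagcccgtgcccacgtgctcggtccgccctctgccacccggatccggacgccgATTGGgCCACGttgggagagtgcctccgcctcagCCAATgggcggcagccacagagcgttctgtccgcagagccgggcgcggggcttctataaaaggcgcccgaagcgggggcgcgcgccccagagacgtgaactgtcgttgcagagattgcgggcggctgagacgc
This element was found at -117, where its ATTGG is also a CCAAT box of the opposite strand, and a further CCAAT lay at -83. It occurred in 11 of 10095 windows (0.109%) on either strand and in 1 of 49 windows of the stress list, that of HERPUD1. The longer form of the element, CCAAT and CCACG with 9 free bases between, was found in 7 of those 49 windows (14.3%), against 0.119% of all.

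Sterol and fatty acid synthesis genes shifted the same way. Of 34 members 13 had a negative difference (38.2%, against 8.34% over all genes) and 0 a positive one (median -0.40). In LNCaP 15 had fallen and in PC3 0, and 5 had risen in PC3. FASN, fatty acid synthase, stood at 9.44 and 9.23 with Notch1 and 10.06 and 9.97 with GFP in LNCaP, and at 10.18 and 10.08 with Notch1 and 9.59 and 9.51 with GFP in PC3. It fell by 0.68 in LNCaP and rose by 0.58 in PC3, with no overlap between the groups of either line (difference -1.25 ± 0.17, adjusted p = 0.00113). ACSL1, which activates long fatty acids, and NPC1, a cholesterol carrier of lysosomes, fell in LNCaP alone (-1.59 ± 0.22 and -1.34 ± 0.16). SQLE, squalene epoxidase, rose in PC3 alone (-1.19 ± 0.21), a call lost with the floor although its arrays lay well above log2 5. With the floor the spread shared by all genes was estimated differently (0.386 prior degrees of freedom against 6.37). The 13 became 8 without LNCaP Notch1 replicate 2.

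Translation factors and tRNA synthetases had 9 negative and 0 positive differences among 45 members, and genes of oxidative phosphorylation 7 and 0 among 53 (20% and 13.2%, against 8.34% negative over all genes), with medians of -0.32 and -0.24. The sizes were small. EIF2S3, the gamma subunit of eIF2, fell by 0.52 in LNCaP and rose by 0.91 in PC3 (difference -1.42 ± 0.21), and NDUFA5, of respiratory complex I, rose by 0.69 in PC3 alone (difference -0.81 ± 0.18, a call lost with the floor at the same difference, adjusted p = 0.0547, and without LNCaP GFP replicate 2, LNCaP Notch1 replicate 2 or either PC3 Notch1 array). Both counts rested on single arrays. The 9 translation genes became 4 with the floor, 1 without PC3 Notch1 replicate 2, 3 without LNCaP Notch1 replicate 2 and 5 without LNCaP GFP replicate 2, LNCaP Notch1 replicate 1 or PC3 Notch1 replicate 1. The 7 respiratory genes became 0 without LNCaP Notch1 replicate 2, PC3 Notch1 replicate 1 or PC3 Notch1 replicate 2, 1 without either LNCaP GFP array, 2 without replicate 1 of PC3 GFP and 4 without replicate 1 of LNCaP Notch1. Ribosomal protein genes had 0 of 40 members called in the difference by limma, and 0 had an unadjusted p under 0.05.

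Genes with opposite changes in the lines are described next, and as given above their number moved several times over with single arrays. Of the 12 that rose in LNCaP and fell in PC3, LMNB1, the nuclear lamin B1, had the largest difference. It stood at 9.63 and 9.5 with Notch1 and 8.19 and 8.10 with GFP in LNCaP, and at 8.02 and 7.85 with Notch1 and 8.6 and 8.63 with GFP in PC3. The line order of LMNB1 was turned round, with LNCaP higher with Notch1 and lower with GFP (effects 1.42 and -0.68, difference 2.10 ± 0.17, adjusted p = 5.6e-05). PRSS2, a trypsinogen whose probes its near-identical relatives may share, differed by 2.01 ± 0.18 and ANG, the ribonuclease angiogenin, by 1.57 ± 0.21. LTBP1, which holds TGF-beta in the matrix, differed by 1.33 ± 0.22 with its LNCaP arrays under log2 5, and lost the call with the floor (0.70). DNAJC7, a cochaperone, differed by 1.29 ± 0.21 at this probe set and by 0.54 without a call at another, and KLF4, a factor of epithelial differentiation, by 1.21 ± 0.19.

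Of the 38 that fell in LNCaP and rose in PC3, CLASP2, which stabilises the growing ends of microtubules, had the largest difference. It stood at 5.28 and 5.35 with Notch1 and 6.36 and 6.63 with GFP in LNCaP, and at 5.67 and 5.44 with Notch1 and 4.27 and 4.64 with GFP in PC3 (difference -2.28 ± 0.22, adjusted p = 0.000127). With GFP the LNCaP arrays were far above those of PC3, and with Notch1 they lay below. EFNB2, ephrin-B2, a ligand of Eph receptors, read 6.91 and 6.91 with Notch1 and 8.49 and 8.65 with GFP in LNCaP, against 4.94 and 5.26 with Notch1 and 4.56 and 4.60 with GFP in PC3 (difference -2.18 ± 0.19), and its PC3 rise was small and near background. TOB1, an antiproliferative protein, and KLF6, a zinc finger factor, differed by -2.21 ± 0.31 and -1.99 ± 0.29. With the floor their differences were the same size, -2.21 and -1.99, and the adjusted p became 0.0512 and 0.057. YME1L1, a protease of the mitochondrial inner membrane, differed by -2.09 ± 0.19 at the probe set with the highest level, but none of 6 other probe sets was called, and all 6 had the opposite sign. RAB5A, of early endosomes, and LAMP2, of the lysosomal membrane, were also reversed (-1.65 and -1.35), with differences of the same size and adjusted p of 0.0561 and 0.0597 with the floor.

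**Figure D4:**
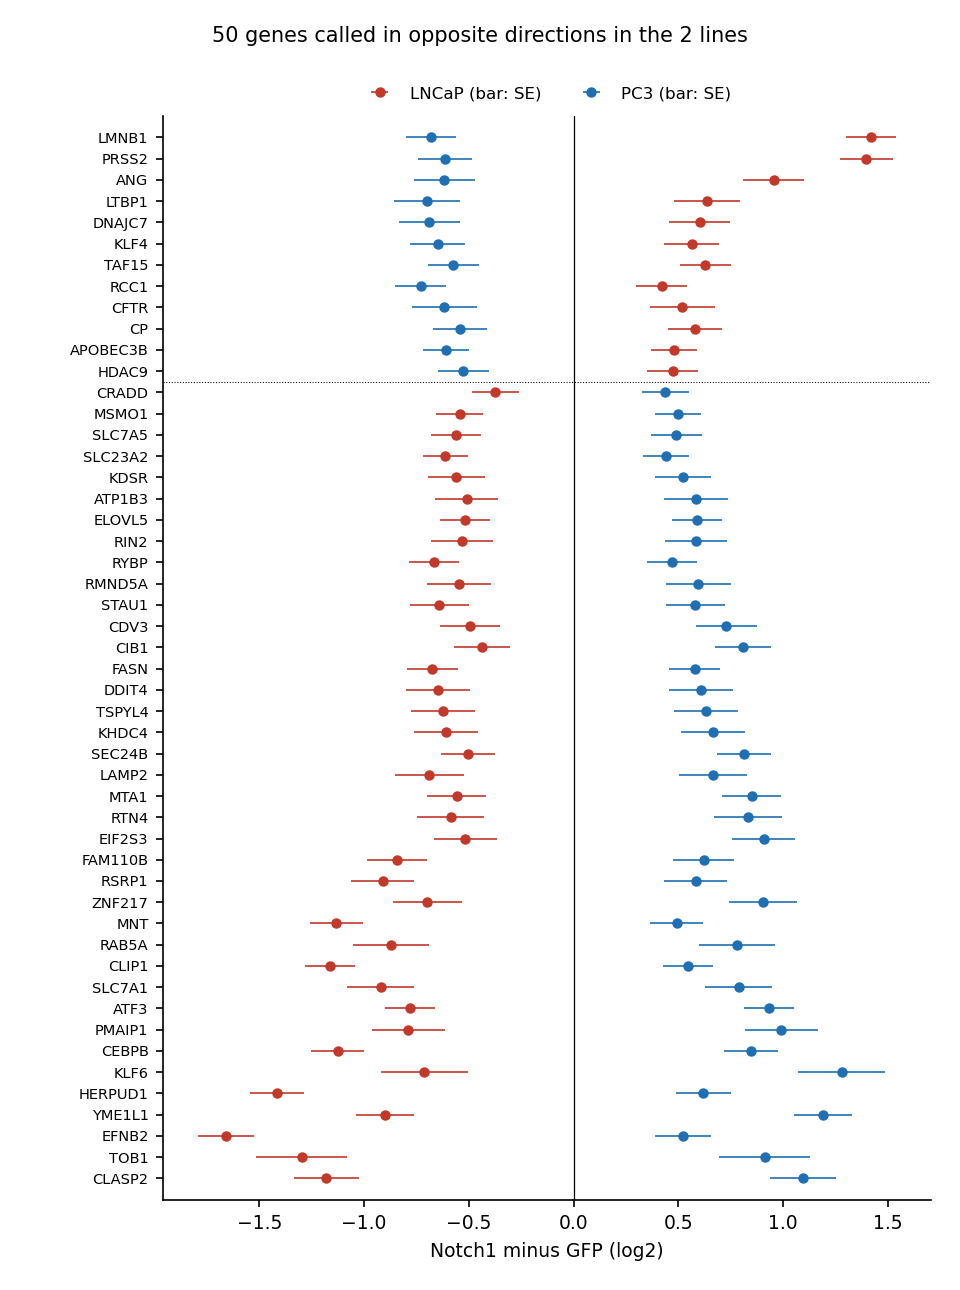
Effects of activated Notch1 (x axis, Notch1 minus GFP, log2, with bars of 1 SE) in LNCaP (red) and PC3 (blue) for the 50 genes (rows) called in opposite directions in the lines and in the difference. In 12 genes LNCaP lies to the right of zero and PC3 to the left, and in 38 the sides are exchanged.

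Basal, junction and mesenchymal lists held differences of both signs. Of 40 basal and squamous genes 6 were positive (15%) and 7 negative (17.5%). Of 35 mesenchymal transition genes 6 were positive (17.1%) and 4 negative (11.4%), and of 32 epithelial junction genes 3 (9.38%) and 6 (18.8%). Over all genes the shares were 6.86% and 8.34%. The junction counts were lowest, at 1 and 2, without either PC3 Notch1 array, and 2 were negative without LNCaP GFP replicate 2 or LNCaP Notch1 replicate 2. SNAI2, a repressor of E-cadherin, rose steeply in both lines, with 7.25 and 7.02 with Notch1 and 1.45 and 0.98 with GFP in LNCaP, and 5.95 and 5.88 with Notch1 and 1.19 and 2.30 with GFP in PC3. With Notch1 the LNCaP arrays lay above those of PC3, and all GFP arrays lay under log2 5. The difference of 1.75 ± 0.41 (adjusted p = 0.0192) was 1.22 with the floor (adjusted p = 0.0109), and the call was lost without any 1 of the 4 Notch1 arrays. CLDN7, a claudin of luminal epithelium, stood at 9.68 and 9.56 with Notch1 and 10.71 and 10.64 with GFP in LNCaP, while its PC3 arrays lay at 4.76 and 4.81 with Notch1 and 4.77 and 4.56 with GFP (difference -1.19 ± 0.17). S100A2, a calcium-binding protein of basal cells, rose in PC3 alone, with 6.4 and 6.6 with Notch1 and 6.26 and 6.3 with GFP in LNCaP, and 12.54 and 12.63 with Notch1 and 11.33 and 11.48 with GFP in PC3 (difference -0.96 ± 0.17). PKP2, a desmosome protein, had a difference of -2.38 ± 0.22 and a value of 0.00 with the floor, since all its arrays lay under log2 5.

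Further lists are given with the shares over all genes (6.86% positive, 8.34% negative, 15.2% in all) for comparison. Of 44 immediate early and MAP kinase genes 15 were negative (34.1%) and 6 positive (13.6%), of which the 15 became 8 with the floor or without PC3 Notch1 replicate 2 and 9 without LNCaP GFP replicate 2 or LNCaP Notch1 replicate 2, and the 6 became 2 to 4 without any LNCaP or PC3 Notch1 array. Of 46 interferon response genes 5 were positive and 0 negative (10.9%), led by IFI44, at 7.48 and 7.54 with Notch1 and 6.06 and 6.12 with GFP in LNCaP, and at 6.25 and 6.46 with Notch1 and 6.54 and 6.66 with GFP in PC3 (difference 1.66 ± 0.17). That count was 8 without PC3 GFP replicate 2, 2 with the floor, and 2 or 3 without any LNCaP or PC3 Notch1 array. Of 38 WNT pathway genes 4 were positive and 1 negative (13.2%), among them LEF1, a nuclear partner of beta-catenin (1.34 ± 0.19), and LRP6, a coreceptor (1.06 ± 0.20). Of 24 histone genes 2 were positive and 1 negative (12.5%), and in LNCaP 2 rose and 3 fell. The positive ones, H1-2, a linker histone, and H2AX, the histone variant phosphorylated at DNA breaks, rose in LNCaP alone (1.99 ± 0.17 and 1.51 ± 0.17). H2BC21 fell there (-1.0 ± 0.20). Hypoxia genes were positive in 7 and negative in 2 of 39 (17.9% and 5.13%), with P4HA2, a collagen prolyl hydroxylase, at 1.32 ± 0.19. The 7 became 3 or 4 without any LNCaP or PC3 Notch1 array and 4 with the floor or under median centring.

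**Figure D5:**
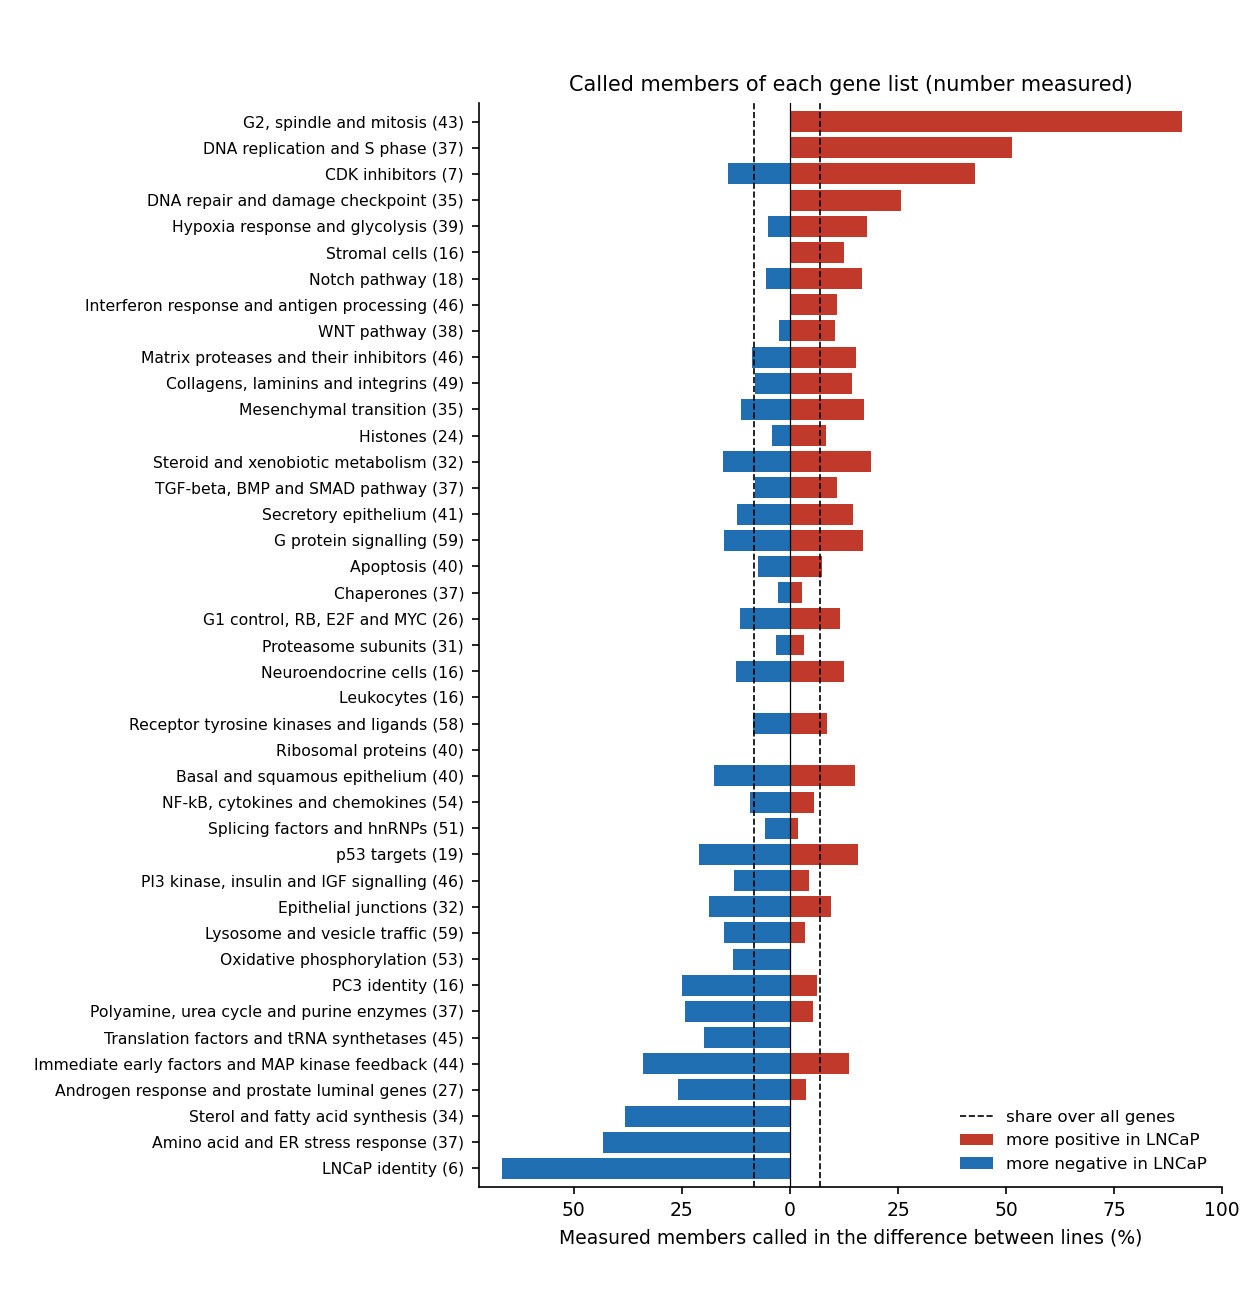
Percent of measured members (x axis) of each gene list (rows), other than those that the study picked, called with a positive or a negative difference between lines, with dashed lines at the shares over all genes (6.86% positive, 8.34% negative). The mitosis list stands far to the right among positive calls, followed among the lists drawn by DNA replication, and the identity genes of LNCaP, the stress list and the sterol list among negative calls.

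Leukocyte and stromal markers had few called differences, and neuroendocrine markers had a share above that of all genes. Of 16 leukocyte markers 0 were called in the difference by limma (6 at an unadjusted p under 0.05). Of 16 stromal markers 2 were positive, ACTA2 among them, and 0 negative (12.5% called, against 15.2% over all genes). The log2 summed level of the stromal list was 11.61 to 11.63 with Notch1 and 11.27 to 11.32 with GFP in LNCaP, and 11.02 to 11.08 with Notch1 and 11.15 to 11.20 with GFP in PC3, with 6 of 16 markers under log2 5 in either LNCaP group and 7 in either PC3 group. Of 16 neuroendocrine markers 2 were positive and 2 negative (25% called, against 15.2% over all genes). SCGN, described above with a difference of 3.91, is among the positive ones. The log2 summed level of this list was 12.2 to 12.22 with Notch1 and 12.47 to 12.53 with GFP in LNCaP. In PC3 it was 10.98 to 11.19 with Notch1 and 11.13 to 11.14 with GFP. Of 9 tumor promoting genes that the study picked partly on these samples 5 were positive (2 or 3 without any Notch1 array) and 2 negative, and of 4 tumor suppressing genes 0 and 1, and since these samples helped to choose them, their direction is no independent evidence. Other probe sets of a gene did not always give the same call: besides those named above this held for BAX, CAV2, CRYAB, E2F5, EIF5B, HES2, IFIT1, MAF, OAS1, PLCB4 and U2AF2.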

How the data were processed

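Total RNA of LNCaP and PC3 cells with activated Notch1 or GFP was copied into biotin-labelled cRNA and hybridised to Affymetrix U95Av2 arrays. Per the methods, the authors summarised the raw array files with RMA in R and used limma (versions not stated there). For each array the authors deposited a log2 value per probe set, already background-corrected and normalized, and no source states whether both lines were normalized together. The deposited log2 values were analysed as they stood, and 2 arrays per group set the precision.

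The 8 arrays entered a single linear model of 4 group means in limma 3.58.1 (R 4.3.3, with 4 residual and 6.37 prior degrees of freedom). It gave Notch1 minus GFP in LNCaP, Notch1 minus GFP in PC3 and their difference. Standard errors are moderated, tests are two-sided, and p-values were adjusted over 12558 probe sets by Benjamini-Hochberg. The procedure was tested on simulated data. Of these probe sets 10943 had 1 gene symbol, 545 several and 1070 none, and a gene was represented by its single-symbol probe set with the highest mean level over all arrays. Symbols were checked against the RefSeq gene table, where 10934 identifiers were found. RefSeq promoter windows were found for 6618 of 8226 genes.

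Members, 43 gene lists and the naming rule were set with earlier results of these data known. The rule took HES1, CDKN1A, SMAD3, EPAS1 and CXCL6, the 10 genes with the largest called difference in each direction whose array differences did not overlap between lines (49.6% of all genes did not overlap, in one direction or the other), the 6 largest reversed genes in each orientation, and, from every list, the 4 called members that differed most. Where another probe set of a named gene gave another call, this is mentioned beside the gene or in the list that closes the Results. Alternatives were median centring, quantile normalization, a floor at log2 5, a filter at the 25th percentile of level, a trend in the spread, the replicate number as a block, each array left out, a 2-fold minimum (log2 of 1) and averaging over probe sets of a gene. NOTCH1 and HEY1 were not analysed here.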

Additional observations from a re-analysis of the deposited data

Results flagged for a closer look

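The effect of activated Notch1 differed between the lines by a test of the difference itself (limma, adjusted p under 0.05) for 815 probe sets with a positive and 963 with a negative value, and for 564 and 686 genes. Of the 155 genes that the rule named, 153 passed this test, and HES1 and EPAS1 did not. HES1, CDKN1A, SMAD3, EPAS1 and CXCL6 were named whatever their test. All others were named only because they passed it, so this share describes the rule and not the response. Positive differences among the genes with the widest gap were those of CLEC2B at 4.39, SCGN at 3.91, TNFSF10 at 3.63, TP53I3 at 3.56, SCGB1A1 at 3.55, CITED1 at 3.34, ANXA1 at 3.08, AGT at 3.07, MMP1 at 3.0 and OAT at 2.98 (log2, LNCaP effect minus PC3 effect). All but MMP1, which came from a fall in PC3, came from a rise in LNCaP. Negative ones were those of SERPINB3 at -6.73, CXCL6 at -4.42, CYP1B1 at -3.96, ROR1 at -3.26, CXCL8 at -3.26, CSN1S1 at -3.14, SERPINB1 at -2.91, LPCAT3 at -2.88, SSBP2 at -2.74 and PRUNE2 at -2.63. Of these SSBP2 and PRUNE2 fell in LNCaP alone and LPCAT3 fell in LNCaP with an uncalled effect in PC3.

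Responses that ran in opposite directions, a rise in LNCaP beside a fall in PC3, gave 2.10 for LMNB1, 2.01 for PRSS2, 1.57 for ANG, 1.33 for LTBP1, 1.29 for DNAJC7 and 1.21 for KLF4. A fall in LNCaP beside a rise in PC3 gave -2.28 for CLASP2, -2.21 for TOB1, -2.18 for EFNB2, -2.09 for YME1L1, -2.03 for HERPUD1 and -1.99 for KLF6. With 2 arrays in a group, single arrays could not be examined for outliers.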

How the results depend on the processing

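Over 14 alternatives the 153 calls and 2 uncalled values of the named genes gave 2149 values, of which 1923 kept direction and call, 220 lost the call, 3 gained it and 3 changed sign. Of the 155 genes 95 were unchanged under every alternative and 18 lost the call with the floor at log2 5 alone. The sign changes all came with the floor, for PLK2 (0.34, adjusted p = 0.488), PLOD2 (-0.58, adjusted p = 0.426) and NTS (-0.60, adjusted p = 0.0308), whose arrays in 1 line lay largely under log2 5. With the floor, called differences numbered 365 positive and 386 negative genes (512 and 551 probe sets), with 730 probe sets lower in LNCaP, 208 higher and 139 lower in PC3, and 20 that fell in LNCaP and rose in PC3. A minimum of 2-fold left 289 positive and 487 negative probe sets. Of 1290 list counts under alternatives 997 stayed within 1.5 times and 293 moved further.

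With 1 array left out, called differences ranged over 400 to 1348 positive and 550 to 1316 negative probe sets, and 274 to 890 and 394 to 944 genes. Probe sets numbered 539 to 1196 higher and 638 to 1350 lower in LNCaP, 187 to 1003 higher and 64 to 691 lower in PC3, and the opposite responses 2 to 43 (up in LNCaP) and 8 to 171 (down in LNCaP). PC3 counts were highest without PC3 GFP replicate 2 and lowest without PC3 Notch1 replicate 2, and the cause was not tested. A group left with 1 array is assumed to vary like the others. The groups share replicate numbers, and deviations of equal numbers correlated at 0.124 to 0.545 over the 6 pairs of groups, but no source says that a number marks a pairing. With the number as a replicate block, 1445 positive and 1434 negative probe sets were called, 972 positive genes, 919 higher and 588 lower probe sets in PC3, and 48 and 145 with opposite responses, and EPAS1 gained a call. The 2 chips per sample and levels under log2 5 limit what can be read of weak genes.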

Other observations

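Some 44 genes changed in the same direction in both lines and yet to a different degree, 18 raised more and 8 lowered more in LNCaP, and 13 raised more and 5 lowered more in PC3. Those named in this paragraph without mention above were chosen after their values were seen, and the alternatives were not run for them. GSN, the actin-severing protein gelsolin, rose by 3.74 in LNCaP and 1.33 in PC3 (difference 2.41 ± 0.23, SE, adjusted p = 0.000114 by limma). IL13RA1, a receptor of interleukin 13, rose by 3.17 in LNCaP and 0.60 in PC3 (difference 2.57 ± 0.20), and ENC1, an actin-binding protein of neurons, by 2.96 and 0.57. TFF1, a trefoil peptide of mucosal epithelium, rose steeply in both lines, by 6.03 in LNCaP and 4.69 in PC3, and the lines still differed (1.34 ± 0.24, adjusted p = 0.00453). Raised more in PC3 were RHOH, a GTPase of blood cells, by 0.86 in LNCaP and 2.70 in PC3, IGFBP3, which binds insulin-like growth factors, by 1.71 and 2.80, and BCL10, an adaptor of NF-kB signalling, by 1.06 and 2.35. RAMP1, a partner of the calcitonin-like receptor, fell by 2.41 in LNCaP and by 0.72 in PC3, whereas DUSP4, a MAP kinase phosphatase, fell by 0.44 in LNCaP and by 1.27 in PC3.

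Of 37 enzymes of the urea cycle and of polyamine and purine metabolism 9 had a negative difference (24.3%, against 8.34% over all genes) and 2 a positive one, and ADK, PRPS1 and ATIC among the 9 and ADA among the 2 are purine enzymes. ARG1 and ARG2, the arginases that split arginine into ornithine and urea, fell by 1.4 and 1.43 in LNCaP and had effects of -0.15 and 0.01 in PC3, where their arrays lay under log2 5. Both lost the call of a difference with the floor (0.00 and -0.52). Their differences of -1.25 and -1.44 stood beside one of 2.98 for OAT, the ornithine aminotransferase described above. In the same list SAT1, a polyamine acetylase, had an effect of -0.16 in LNCaP and a rise of 1.6 in PC3. Of 59 genes of lysosomes and vesicle traffic 9 were negative and 2 positive (18.6% called, against 15.2% over all genes), and of 59 genes of G protein signalling 9 and 10 (32.2%).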
